A study of Mus musculus with 6 samples.

Results

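Small leucine-rich proteoglycans, versican and fibulins were followed here in 1G11-mock and 1G11-SOD3 cells through 10 genes, namely decorin (*Dcn*), biglycan (*Bgn*), lumican (*Lum*), fibromodulin (*Fmod*), osteoglycin (*Ogn*), prolargin (*Prelp*), asporin (*Aspn*), versican (*Vcan*), fibulin 1 (*Fbln1*) and fibulin 2 (*Fbln2*). A spot was taken where it was no control and its description or target sequence named 1 of the 10 genes. This gave 14 probes, each printed once, out of 55681 probes at 59305 non-control spots that stood for 21655 named genes. Of the 14 probes, 12 were found by gene symbol or accession, and 2 (1 of *Prelp* and 1 of *Fbln1*) by the full gene name of a cDNA or an Ensembl transcript. *Vcan* and *Fbln1* had 3 probes each and the other genes 1 each. Of the 14 probes, 12 were well above background on at least 1 array and 8 on all 6.

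1G11 is a mouse microvascular endothelial cell line, labeled as strain C57BL/6NCrLBR. 1G11-SOD3 cells overexpress SOD3, the extracellular superoxide dismutase, and 1G11-mock cells do not. Before RNA isolation both lines, 3 arrays each, spent 6 h in conditioned medium of the murine mammary cancer line N202.1A, so that no array shows cells without that medium. The arrays stand for separate experiments with 1 line per condition, and a difference between the lines cannot be told apart from other differences between the 2 lines. Values are log2 intensities after background correction and quantile normalization, and differences are 1G11-SOD3 minus 1G11-mock with their standard error (SE).

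The small leucine-rich proteoglycans are secreted proteins whose leucine-rich repeats bind collagen fibrils and set fibril diameter and spacing, and several of them also bind growth factors. Versican is a large chondroitin sulfate proteoglycan that binds hyaluronan and loosens the matrix around cells. Fibulins are secreted glycoproteins that join elastic fibers, basement membranes and versican. In blood vessels these proteins are made mostly by fibroblasts, pericytes and smooth muscle cells, and endothelial cells make some of them, among them biglycan.

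*Lum* and *Fmod*, both of which encode collagen-binding keratan sulfate proteoglycans, were higher in 1G11-SOD3 cells. They were 2 of the 14 member probes called higher, a call being a change of more than 2-fold with an adjusted p under 0.05 (limma, Benjamini-Hochberg over all probes). Over all probes, 1.87% were called higher and 1.06% lower, and no member probe was called lower. In the normalized values, *Bgn* and *Prelp* read lower on every 1G11-SOD3 array without passing the test. *Dcn* and *Ogn* were well above background on every array, and both read highest on 1G11-SOD3 replicate 3, above all other arrays of either line. The probe of *Fbln2* and the 3 probes of *Fbln1* had overlapping values in the lines.

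The probes on which these results turn are shown by their first 30 bases, 5′ to 3′, since each value is the hybridization to that one stretch of a transcript. The 3 *Vcan* probes are included because they lie in different parts of the gene. No base is marked, and all probes are 60 bases long.
Dcn: aacaccttcagatgtgtctatgtgcgttct
Lum: taagcatttgcacggttacttagtgaaact
Ogn: cattaaagcatctgtgaactgtaaggccac
Fmod: ggcaagcgtggttttcaaaacatgagaaag
Prelp: gaaataaagtcatatggaaaacacccagca
Bgn: caatcagattcggatgattgagaatgggag
Vcan A_55_P1960202: ttcatcctaatgtgtactagagcacagaaa
Vcan A_55_P1960208: ttgagaaccagacatgcttccctctccctg
Vcan A_52_P1044655: cggcaggctttaggttgtctatgtaaatga

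The array annotation, whose genome build is not given in the sources used here, places the *Dcn* probe on chromosome 10 from 96980233 to 96980292 and the *Lum* probe from 97035210 to 97035269, both on the plus strand. *Fmod* lies on chromosome 1 (probe at 135943998 to 135944057, plus strand), as does *Prelp* (135806855 to 135806914, minus strand). In the RefSeq gene order (GRCm38.p6), *Lum* follows *Dcn*, and *Prelp* and *Fmod* are neighbors. *Aspn*, *Omd* and *Ogn* follow each other on chromosome 13. Exon and UTR positions of the probes were not determined, as no genome was used.

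Where a spot lies on the array bears on these values. All 6 arrays lay on 1 slide, with 1G11-mock in slide row 2 and 1G11-SOD3 in slide row 1, and line and slide row cannot be told apart. A block in the middle of the array reads dim on 1G11-mock arrays. It holds 6606 non-control spots and 1 of the 14 member spots, *Vcan* A_55_P1960202, which is given apart. A position adjustment, in which a running median over the neighboring spots was taken off each array, served as a second setting for every member. With it, 1.08% of all probes were called higher and 2.60% lower. The scanner software marked 34.2% to 43.8% of spots per array as well above background, and no spot was saturated. Correlations between arrays of one line were 0.946 to 0.980 for 1G11-mock and 0.967 to 0.980 for 1G11-SOD3. Between arrays of different lines they were 0.881 to 0.958, which overlaps the range within 1G11-mock. They were taken over probes well above background on all arrays of a line. *Sod3* itself had a mean of 12.04 ± 1.95 (SD, n = 3 arrays) in the mock line against 16.31 ± 0.06 (SD, n = 3 arrays) in the SOD3 line (log2 fold change 4.27, limma adjusted p = 0.00786), but its probe lies in the dim middle, and the difference was 2.54 (adjusted p = 0.0201) after the position adjustment. The species of the SOD3 that the line overexpresses is not given in the sources used here, and whether this mouse probe reads it was not tested.

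**Figure D1:**
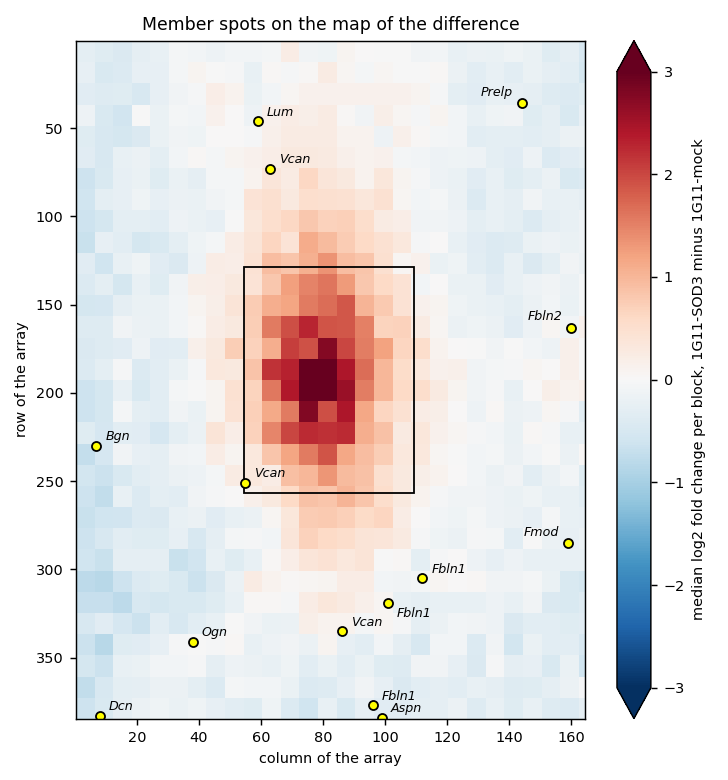
Map of the array with its rows and columns as axes, colored by the median log2 fold change (1G11-SOD3 minus 1G11-mock) of blocks of spots, with the 14 member spots as yellow points and the dim middle as a box. Of the member spots, 13 lie outside the box and 1, of *Vcan*, lies at its lower left corner.

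Among the collagen-binding members, *Lum* read 7.63, 7.55 and 6.90 on the 1G11-mock arrays and 8.80, 8.62 and 10.33 on the 1G11-SOD3 arrays. It was well above background on every 1G11-SOD3 array and on none of the 1G11-mock arrays, and the groups did not overlap. Its mean pixel intensities before correction were 318, 329 and 317 in 1G11-mock and 604, 513 and 2070 in 1G11-SOD3 cells. *Lum* was therefore, on the mean of the 3 arrays, at least 2.55-fold higher in 1G11-SOD3 cells (limma adjusted p = 0.0306). This bound sets the 1G11-SOD3 mean against the lowest signal that counted as well above background on each 1G11-mock array. After the position adjustment the call held (adjusted p = 0.0421), and the spots around *Lum* differed by a median of 0.05 between the lines.

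*Fmod*, which encodes fibromodulin, a protein that binds the same region of collagen as lumican, read 9.23, 10.36 and 10.25 on the 1G11-mock arrays. On the 1G11-SOD3 arrays it read 10.9996, 12.55 and 12.21, and it was well above background on all 6 arrays. Every 1G11-SOD3 array was above every 1G11-mock array. The log2 fold change was 1.97 (SE 0.41, n = 3 per line, limma adjusted p = 0.0254), or 3.92-fold. After the position adjustment it was 2.24 (SE 0.27, adjusted p = 0.00255), or 4.72-fold, with 9.38, 10.21 and 9.65 in 1G11-mock against 11.71, 12.27 and 11.97 in 1G11-SOD3 cells. Neither call held for every set of arrays. Without 1G11-SOD3 replicate 3, *Lum* (adjusted p = 0.0648) and *Fmod* (log2 fold change 1.83, adjusted p = 0.121) both missed the threshold. *Fmod* was called only when 1G11-SOD3 replicate 1 was the array left out, and *Lum* only when 1G11-mock replicate 1, 1G11-SOD3 replicate 1 or 1G11-SOD3 replicate 2 was. With the position adjustment, *Fmod* was called in all 6 sets with 1 array left out (2.05 to 2.47), and *Lum* in 1 of them, without 1G11-SOD3 replicate 2 (adjusted p = 0.0440).

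*Prelp*, the chromosomal neighbor of *Fmod*, encodes a proteoglycan that anchors basement membranes to connective tissue. It read 9.46, 9.65 and 9.53 in 1G11-mock and 8.75, 8.80 and 8.27 in 1G11-SOD3 cells, and the groups did not overlap. The log2 fold change was −0.94 (SE 0.23, limma adjusted p = 0.0551), short of the threshold. Its adjusted p was between 0.0394 and 0.0496 in 5 of 11 alternatives of processing or model, the replicate block among them (adjusted p = 0.0453), but the change was under 2-fold in each of the 5. It was −0.47 (adjusted p = 0.382) after the position adjustment, and the groups then overlapped.

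*Bgn* encodes biglycan, a proteoglycan of the pericellular matrix. It read 13.79, 13.80 and 14.22 in 1G11-mock and 13.38, 13.16 and 12.87 in 1G11-SOD3 cells, and these groups did not overlap either. The log2 fold change was −0.80 (SE 0.24, limma adjusted p = 0.119). The spots around *Bgn* differed by a median of −0.51, and after the position adjustment its difference was −0.22 (adjusted p = 0.591) and the groups overlapped.

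With *Lum*, *Fmod* and 1 *Vcan* probe above and *Bgn* and *Prelp* below, 3 member probes had every 1G11-SOD3 array higher and 2 had every 1G11-SOD3 array lower. Over all probes with a value on every array, 10.3% had no overlap with 1G11-SOD3 higher and 10.3% with 1G11-SOD3 lower.

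**Figure D2:**
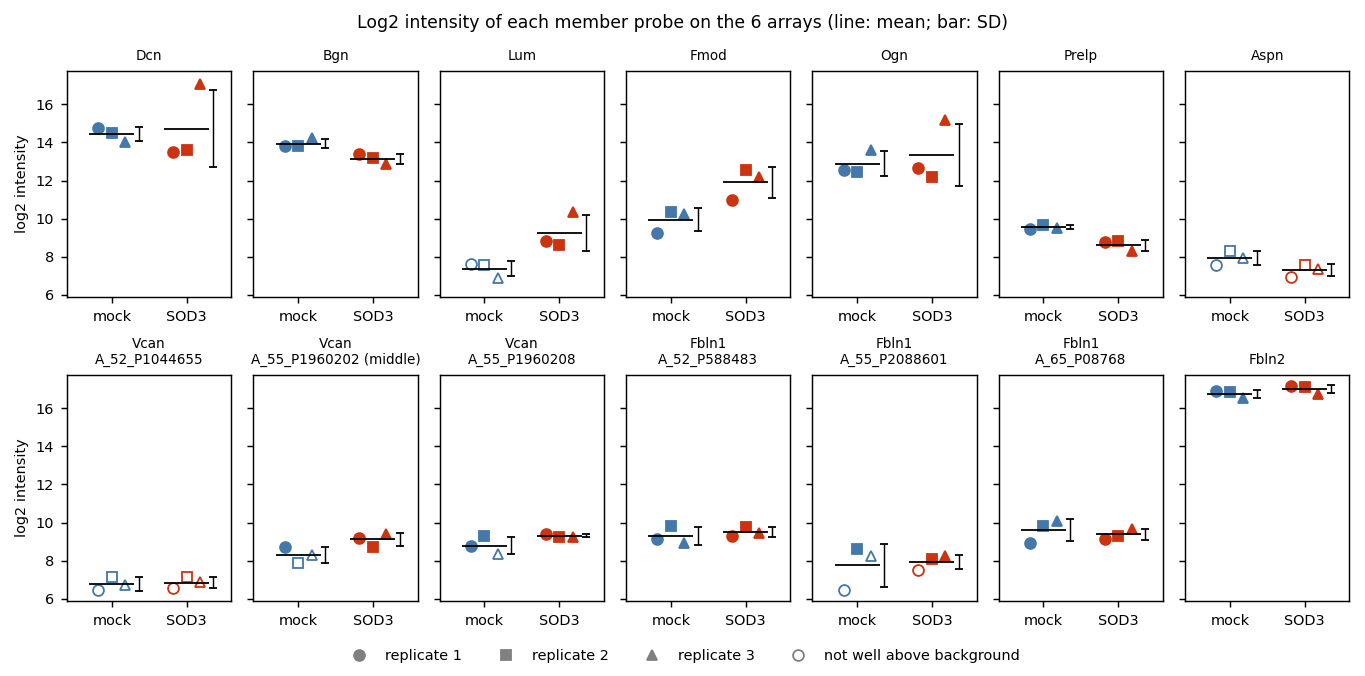
Log2 intensity (y axis) of each of the 14 member probes on the 3 arrays of 1G11-mock (blue) and of 1G11-SOD3 (red), with each line's mean and SD; open symbols are not well above background. *Lum* is open on all 1G11-mock arrays, and *Dcn* and *Ogn* each have 1 1G11-SOD3 array, replicate 3, far above the others.

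*Dcn* encodes decorin, which binds collagen and transforming growth factor beta. It read 14.78, 14.48 and 14.04 on the 1G11-mock arrays, and 13.51, 13.59 and 17.05 on the 1G11-SOD3 arrays. Before any correction its mean pixel intensities were 26300, 17200 and 13400 in 1G11-mock and 13900, 14000 and 171000 in 1G11-SOD3 cells. In the normalized values, replicates 1 and 2 of 1G11-SOD3 lay below all 1G11-mock arrays and replicate 3 lay above them. Before correction replicates 1 and 2 lay above 1G11-mock replicate 3 and below the other 1G11-mock arrays. Over all 3 the log2 fold change was 0.29 (SE 0.74, limma adjusted p = 0.905), and without replicate 3 it was −0.88 (adjusted p = 0.196). The spots around *Dcn* differed by a median of −0.51 between the lines. After the position adjustment the log2 fold change was 0.77 (adjusted p = 0.569), and 1G11-SOD3 replicate 1 (14.01) then lay above 1G11-mock replicate 3 (13.93). The spots around *Dcn* on 1G11-SOD3 replicate 3 deviated by a median of 0.0046 from their mean over the arrays.

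*Ogn*, which encodes osteoglycin (mimecan), a collagen-fibril proteoglycan of bone, cornea and vessel walls, was likewise highest on 1G11-SOD3 replicate 3. It read 12.57, 12.46 and 13.62 in 1G11-mock and 12.65, 12.17 and 15.18 in 1G11-SOD3 cells, and the groups overlapped. The log2 fold change was 0.45 (SE 0.63, limma adjusted p = 0.807) and −0.48 (adjusted p = 0.623) without replicate 3. The spots around it deviated by a median of 0.0698 on that array.

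*Lum* was also highest on 1G11-SOD3 replicate 3. On that array *Dcn*, *Ogn* and *Lum* exceeded the higher of the other 1G11-SOD3 arrays by 3.47, 2.53 and 1.52 on the log2 scale, and by 3.06, 2.55 and 1.49 after the position adjustment. The other 11 member probes ranged from −0.53 to 0.38 on the same measure. *Omd*, the osteomodulin gene next to *Ogn*, read 8.11, 7.93 and 8.69 in 1G11-mock and 8.29, 8.33 and 9.09 in 1G11-SOD3 cells, replicate 3 being the highest in both lines.

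**Figure D3:**
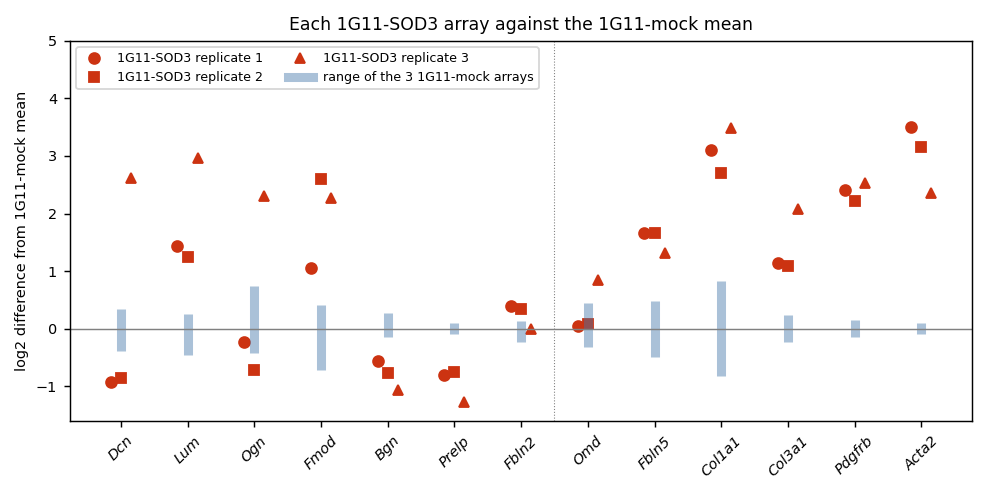
Log2 difference of each 1G11-SOD3 array from the 1G11-mock mean (y axis) for 7 members, left of the dotted line, and 6 other matrix or mesenchymal genes, with the range of the 3 1G11-mock arrays as blue bars. For *Dcn* and *Ogn*, replicate 3 is above the bar and the other two arrays are within or below it.

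*Aspn*, which encodes asporin, was well above background on no array, and no fold is given for it. The same held for *Vcan* A_52_P1044655, whose annotation lists 1 RefSeq transcript, while the other *Vcan* probes list 4 each. *Vcan* A_55_P1960208, outside the middle, read 8.75, 9.28 and 8.35 in 1G11-mock and 9.39, 9.26 and 9.25 in 1G11-SOD3 cells. Its groups overlapped (log2 fold change 0.51, SE 0.26, limma adjusted p = 0.421). *Vcan* A_55_P1960202, the spot in the dim middle, read 8.70, 7.85 and 8.29 against 9.19, 8.72 and 9.42. It passed as well above background on all 3 arrays of 1G11-SOD3 but on 1 array of 1G11-mock, and the groups did not overlap. The difference was 0.83 (SE 0.28, adjusted p = 0.179), the spots around it differed by a median of 0.23, and it was 0.76 (adjusted p = 0.125) after the position adjustment.

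*Fbln2*, which encodes a fibulin of basement membranes and elastic fibers, read 16.91, 16.86 and 16.54 in 1G11-mock and 17.17, 17.11 and 16.77 in 1G11-SOD3 cells. The groups overlapped, although 1G11-SOD3 was higher at each replicate number, by 0.26, 0.26 and 0.23. The log2 fold change was 0.25 (SE 0.23, limma adjusted p = 0.684, and adjusted p = 0.624 with the replicate block). *Fbln1* A_52_P588483 read 9.12, 9.81 and 8.94 against 9.27, 9.76 and 9.45 (0.21, SE 0.27, adjusted p = 0.791). *Fbln1* A_65_P08768, designed on another transcript, read 8.95, 9.82 and 10.06 against 9.13, 9.31 and 9.69 (−0.23, SE 0.30, adjusted p = 0.791). *Fbln1* A_55_P2088601 read 6.47, 8.59 and 8.23 against 7.52, 8.08 and 8.23, and was well above background on 1 1G11-mock and 2 1G11-SOD3 arrays (0.18, SE 0.46, adjusted p = 0.903). The 3 *Fbln1* probes did not share a direction, and none passed the test.

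**Figure D4:**
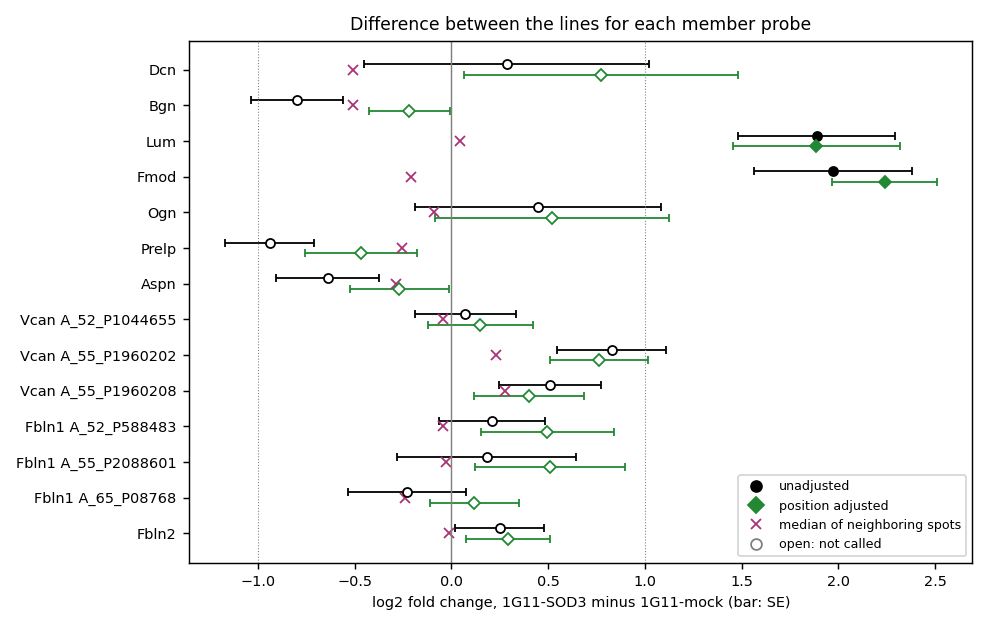
Log2 fold change of each member probe (x axis; bar, SE) without adjustment (circles) and with the position adjustment (diamonds), filled where called, and the median of the neighboring spots (crosses). *Lum*, whose fold is a bound, and *Fmod* are filled under both settings, and *Bgn* and *Prelp* move toward 0 with the adjustment.

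Genes that work with the members were counted in 6 lists of 75 genes on the array, 1 probe per gene, of which 51 were well above background on at least 1 array. Of the 75, 6 were called higher and 1 lower, while 3.02% of all 21655 genes were called higher and 1.75% lower. Among the 11161 genes well above background on all arrays of a line, 5.79% were called higher and 3.32% lower. Of 11 other small leucine-rich proteoglycans, *Chadl* (chondroadherin-like) was called higher, at least 3.67-fold (limma adjusted p = 0.00251), and *Podn* (podocan), at least 2.19-fold higher (adjusted p = 0.0716), was called only after the position adjustment (adjusted p = 0.0441). The list's median log2 fold change was 0.04, against −0.03 over all genes. Of 5 other fibulins and hemicentins, *Fbln5*, which organizes elastic fibers, was called higher (1.55, SE 0.28, adjusted p = 0.0119), and the median was 0.20. *Fbln5* read 13.42, 12.94 and 12.44 in 1G11-mock and 14.60, 14.60 and 14.25 in 1G11-SOD3 cells, and the groups did not overlap. The second probes of *Chadl* and *Fbln5* were well above background on no array.

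None of the 22 genes of chondroitin and dermatan sulfate chain synthesis, the enzymes that build the sugar chains of decorin, biglycan and versican, was called (median −0.10). After the position adjustment 1 of them, *Chsy3*, was called lower, but its spot lies in the dim middle and never passed as well above background. Of 10 proteases that cut versican or small proteoglycans, 2 were called higher (median 0.13). *Adamts1*, a versicanase, rose by 2.44 (SE 0.29, limma adjusted p = 0.00124), and *Htra1*, a secreted serine protease, by 1.501 (SE 0.24, adjusted p = 0.00683). *Adamts4*, at least 1.71-fold higher (adjusted p = 0.166), was called only after the position adjustment (adjusted p = 0.0113). For 2 more proteases another probe was called higher while the probe used for the gene was not. The other *Adamts5* probe differed by 1.22 (adjusted p = 0.0250) against 0.39 (adjusted p = 0.522) for the one used. That of *Bmp1*, in the dim middle, differed by 1.68 (adjusted p = 0.0356) against −0.08 (adjusted p = 0.905), and neither other probe was called after the position adjustment (0.94 and 0.91). Of 15 other hyalectans and hyaluronan genes, *Hmmr*, a hyaluronan receptor, was called (2.06, adjusted p = 0.00664; median of the list 0.12), but its spot lies in the dim middle and it was not called after the position adjustment (1.07, adjusted p = 0.102). Of 12 elastic fiber and matrix partners (median 0.06), *Eln*, which encodes elastin, was at least 1.77-fold higher (adjusted p = 0.0271) and *Tnr*, which encodes tenascin-R, fell by 2.22 (adjusted p = 0.000839).

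**Figure D5:**
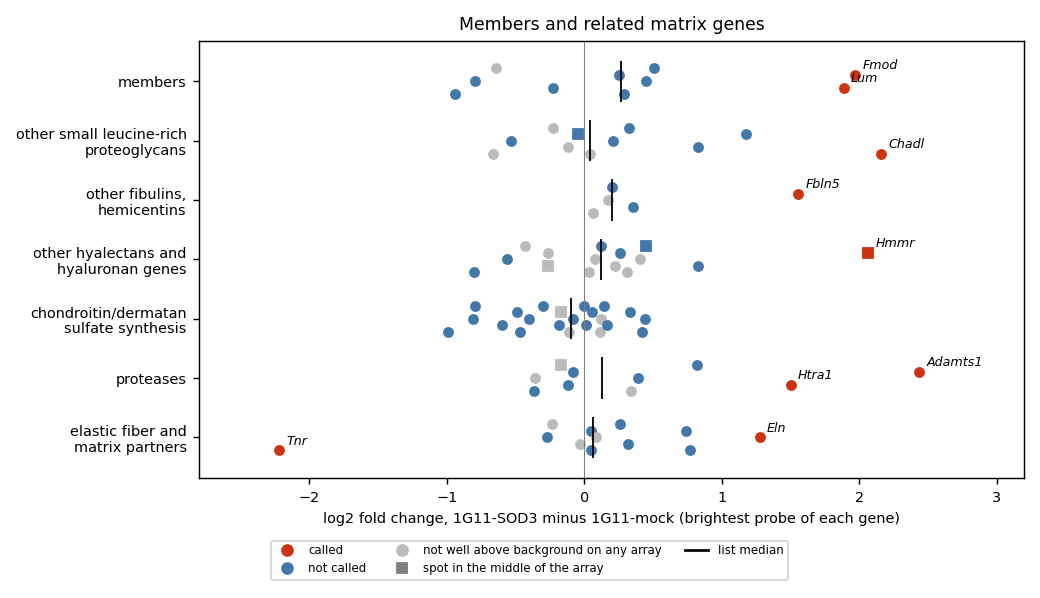
Log2 fold change (x axis, 1G11-SOD3 minus 1G11-mock, brightest probe per gene) of the members and of 6 lists of related matrix genes, colored by whether the gene was called, with each list's median as a vertical line. The medians lie between −0.10 and 0.27, and the called genes are single points to the right, with *Tnr* to the left.

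Some markers of fibroblasts, pericytes and smooth muscle also differed between the lines. Of 10 fibroblast and pericyte markers, 4 were called higher in 1G11-SOD3 cells, namely *Pdgfrb* (2.39), *Col1a1* (3.096), *Col3a1* (1.43) and *Col1a2* (at least 1.55-fold). The summed intensity of the list, on the linear scale, was 46914 to 59285 on 1G11-mock arrays against 120264 to 229260 on 1G11-SOD3 arrays. Most of it came from *Col3a1* (mean log2 15.51 in 1G11-mock and 16.94 in 1G11-SOD3 cells). *Pdgfra*, in the dim middle and well above background on all 6 arrays, was not called (0.52, limma adjusted p = 0.296). *Thy1* and *Cspg4*, each well above background on 1 array, were not called either. *Fap*, *Postn* and *Rgs5* were well above background on no array. Of 4 smooth muscle markers, 3 were called higher: *Acta2* (3.01, spot in the dim middle), *Tagln* (1.45) and *Cnn1* (at least 5.34-fold), with summed intensities of 1865 to 2275 against 7655 to 15299. Of 12 endothelial markers, 7 were well above background on at least 1 array, and *Cdh5*, *Tie1*, *Tek*, *Emcn* and *Erg* on none. The summed intensity of the 12 was 22236 to 30158 on 1G11-mock arrays against 16056 to 19567 on 1G11-SOD3 arrays. Most of that sum came from *Eng* (−1.05, limma adjusted p = 0.0835) and *Kdr* (−0.51, adjusted p = 0.295), neither of them called. *Vwf* was called lower (−1.65) and *Egfl7* higher (1.82), the latter not after the position adjustment. Of the 6 epithelial markers (summed intensity 67387 to 112032 against 44486 to 84417) and the 5 leukocyte markers (2446 to 3379 against 2423 to 2862) none was called. The epithelial sum was almost all *Krt19* (mean log2 16.48 in 1G11-mock and 15.96 in 1G11-SOD3 cells). *Epcam* and *Ptprc* were well above background on no array, *Krt19*, *Csf1r* and *Cd3e* on all 6, and *Cdh1* on the 3 1G11-SOD3 arrays. The *Cdh1* spot lies in the dim middle, and its groups overlapped (0.30, limma adjusted p = 0.590). In RNA from whole cultures, more cells of a type and more RNA per cell cannot be told apart, and the part of these markers in the values of *Lum* and *Fmod* was not tested.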

How the data were processed

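Per the file headers, the authors deposited Feature Extraction 10.7.3.1 scanner intensities of each spot, which are not normalized. The authors also deposited log2 values after normexp correction (offset of 50) and quantile normalization. That table was recomputed within 0.005 from median pixel intensities with control spots kept.

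Here mean intensities were corrected by normexp (offset of 50) on local background medians, log2 transformed, stripped of control spots and quantile normalized. Outlier spots were left out and copies of a probe averaged. The lines were compared by limma 3.58.1 (R 4.3.3) with Benjamini-Hochberg adjustment over 55681 probes. Python 3.11.15 with pandas 2.3.3, numpy 2.4.6 and matplotlib 3.10.9 was used for tables and figures. A probe that passed background on none of the arrays of one line has a bound in place of a fold. The position adjustment took off a running median of 21 rows by 11 columns, with member spots and the probes printed 10 times held out; among 4 windows it left the smallest SD between copies of 199 such probes (0.673 before, 0.221 after). On simulated data, 180 of 200 changed probes were found and 7 others called. The members, gene lists, markers and alternatives were chosen with earlier results of these data known. All member probes are named, with list genes called in either setting and *Sod3*. *Hmcn2* had no probe on the array. The replicate number is also the slide column. Deviations of same-numbered arrays from their line's mean were weakly correlated (r = 0.201, 0.141 and 0.138 over 19722 probes). Whether same-numbered arrays share an experiment is not given in the sources used here, and experiment and slide column cannot be told apart. The main fit did not use the replicate number, and the replicate block did. The number of arrays, 3 per line, limits the precision.

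The alternatives were median in place of mean pixel intensity, an offset of 16, no correction for background, scaling to the 75th percentile (of the processed signal or of the corrected values), outlier spots kept, control spots kept, removal of dim probes, a replicate block, a variance trend, the deposited table, the position adjustment, the middle left out, and each array left out in turn. The position adjustment with an array left out or with the replicate block was added after seeing the data.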

Additional observations from a re-analysis of the deposited data

How the results depend on the processing

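The 2 member probes called higher were called under 10 of 11 alternatives of processing or model, and under both settings of place on the array. With no background correction 0 were called (*Lum* adjusted p = 0.104, *Fmod* adjusted p = 0.0701). Leaving out each array in turn gave 0 to 2 called higher and 0 called lower, and with the position adjustment 1 to 2 called higher. A member was called lower only with the processed signal after scaling at the 75th percentile, where 1 was (*Aspn*, adjusted p = 0.0304, not well above background on any array), a setting that called 9918 of all probes lower and moved the median of all probes to −0.52; scaling the corrected values moved it to −0.33. With the replicate block 2 were called higher (*Lum* adjusted p = 0.0227, *Fmod* adjusted p = 0.000753) and 0 lower, and no member call changed.

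Without 1G11-SOD3 replicate 3, *Dcn* turned to −0.88 (−0.28 with the position adjustment) and *Ogn* to −0.48 (−0.35); with any 1 array left out they ranged from −0.88 to 0.89 and from −0.48 to 1.03. *Fbln1* A_55_P2088601 turned to −0.035 with scaling to the 75th percentile and to −0.46 without 1G11-mock replicate 1, the range with 1 array left out being −0.46 to 0.60. *Fbln1* A_65_P08768 turned to 0.12 with the position adjustment, with or without the replicate block, and to 0.046, 0.13, 0.18, 0.19 and 0.22 with an array left out as well, but stayed at −0.059 without 1G11-mock replicate 1. Genes of the related lists called lower went from 1 to 2 with the position adjustment. Signal over background limits *Lum*, *Aspn* and *Vcan*, and causes were not tested.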

Other observations

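Among the 23749 probes well above background on 1G11-SOD3 replicate 3, that of *Dcn* ranked 1st, that of *Ogn* 7th and that of *Lum* 77th by the excess over the higher of the other 1G11-SOD3 arrays. An excess above 2 on the log2 scale was seen for 20 probes there, and for 1 and 5 on 1G11-SOD3 replicates 1 and 2. The 1G11-mock arrays had 75, 22 and 31 such probes. Of the probes of *Igf1*, which encodes a growth factor and was named after its values were seen, 2 were among the 20, with 3.03 and 2.43, and another had an excess of 1.61. The cause was not tested.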
